A study of Mus musculus with 2 samples.

Results

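Myoepithelial cells of the mouse submandibular gland were picked from single-cell RNA counts by smooth muscle actin together with basal keratins. A cell counted as one when it held at least 3 UMIs of Acta2, at least 2 UMIs of Krt14 and Krt17 together, and 0 UMIs of Pecam1, an endothelial gene, and of Rgs5, a gene of vascular mural cells. Each UMI stands for 1 RNA molecule caught in a droplet. Of 4086 cells with at least 200 detected genes and less than 20% mitochondrial UMIs, 76 met the rule, 45 of 2423 in the p63 KO library and 31 of 1663 in the p63 wild-type library. The rule used measured values, so the levels of Acta2, Krt14, Krt17, Pecam1 and Rgs5 in these cells are a description and support nothing.

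The 2 libraries came from adult p63 KO and p63 wild-type mice, both aged 12 weeks, with 1 library per genotype. Whole salivary glands were dissociated and captured in droplets that tag the 3' ends of transcripts, while the source label calls the material primary epithelial progenitor cells. The labels give neither the way and time at which p63 was removed, nor a promoter or Cre line, nor the number of glands per library. The series concerns p63, a transcription factor of basal epithelium encoded by Trp63, and follistatin (Fst), which is secreted and keeps activins from their receptors. With 1 library per genotype there was no replicate check and no test: cells of a library share an animal or pool and were not treated as replicates, and all intervals are 95% intervals for counting error only.

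Myoepithelial cells lie between the secretory cells of a gland and the basement membrane. They are epithelial, carry keratins 5, 14 and 17, and contract through a smooth muscle apparatus of alpha actin (Acta2), smooth muscle myosin (Myh11, with its light chain Myl9), the kinase that phosphorylates that light chain (Mylk) and the thin filament proteins calponin (Cnn1), transgelin (Tagln) and tropomyosin (Tpm2). In salivary glands they are known to help expel saliva, and in mammary glands to contract in response to oxytocin.

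Depth differed between the genotypes. The libraries held 11828669 UMIs in 4726 barcodes (KO) and 8811082 UMIs in 1970 barcodes (wild type), and 11 barcode sequences occurred in both, none of them in a cell that met the rule. Myoepithelial cells had a median of 2447 UMIs in the KO library (1178 to 11538) and 3544 UMIs in the wild-type library (2188 to 18530), with medians of 1031 and 1356 detected genes. Median mitochondrial shares were 4.19% in KO and 4.48% in wild-type cells, and ribosomal protein genes took 16.5% in both. No barcode that failed the cell filter met the rule in either library.

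By the rule as given, the share of myoepithelial cells was 1.86% of KO cells (95% exact binomial interval 1.36 to 2.48%) and 1.86% of wild-type cells (1.27 to 2.64%). The cell filter moves these shares: over barcodes with 500 or more genes and under 10% mitochondrial UMIs they were 3.002% in KO and 2.12% in wild type, and over all deposited barcodes 0.952% in KO and 1.57% in wild type. Recovery of cells during dissociation can set such shares too. They also moved with the keratin minimum, to 1.24% in KO and 1.68% in wild type with at least 4 keratin UMIs. The libraries differ in how shallow their cells are, since kept cells start at 1077 UMIs in KO and 2175 UMIs in wild type, and 17 of the 45 KO myoepithelial cells have fewer UMIs than any of the wild-type ones. With every cell reduced at random to 1000 UMIs before the rule was applied, 20 KO cells (0.825%) and 19 wild-type cells (1.14%) met it.

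The genes that chose the cells were spread as follows. Acta2 (ENSMUSG00000035783; GRCm38 chromosome 19, 34241090 to 34255590, minus strand) ranged from 3 to 38 UMIs with a median of 12 in KO cells, and from 3 to 74 with a median of 20 in wild-type cells. Per 1000000 UMIs summed over the cells of a class (CPM) it stood at 4723 in KO and 4813 in wild-type cells. Krt14 (chromosome 11, 100203162 to 100207548, minus strand) had medians of 1 UMI in KO and 8 UMIs in wild-type cells, or 649 and 1980 CPM. Krt17 (chromosome 11, 100256217 to 100261029, minus strand) had medians of 4 UMIs in KO and 5 in wild-type cells, or 1989 and 1377 CPM. The ranges of all these genes overlapped between the libraries.

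The keratin pair differed in its make-up. Both keratins were found in 26 of 45 KO cells (57.8%, 42.2 to 72.3%) and in 26 of 31 wild-type cells (83.9%, 66.3 to 94.5%). Krt17 without Krt14 occurred in 16 KO cells (35.6%, 21.9 to 51.2%) and in 1 wild-type cell (3.23%, 0.0816 to 16.7%). Krt14 without Krt17 occurred in 3 KO and 4 wild-type cells. The 16 KO cells without Krt14 held Myl9, a contractile gene outside the rule, at 1544 CPM, while the 29 KO cells with Krt14 had 1039 CPM. The contractile genes Cnn1 and Mylk, also outside the rule, differed little. Cnn1 had 269 CPM in KO cells without and 290 CPM in KO cells with Krt14, and Mylk 425 and 419 CPM. Acta2, which chose the cells, stood at 5661 CPM in KO cells without and 4304 CPM in KO cells with Krt14. Epcam stood at 336 CPM in KO cells without and 779 CPM in KO cells with Krt14.

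**Figure D1:**
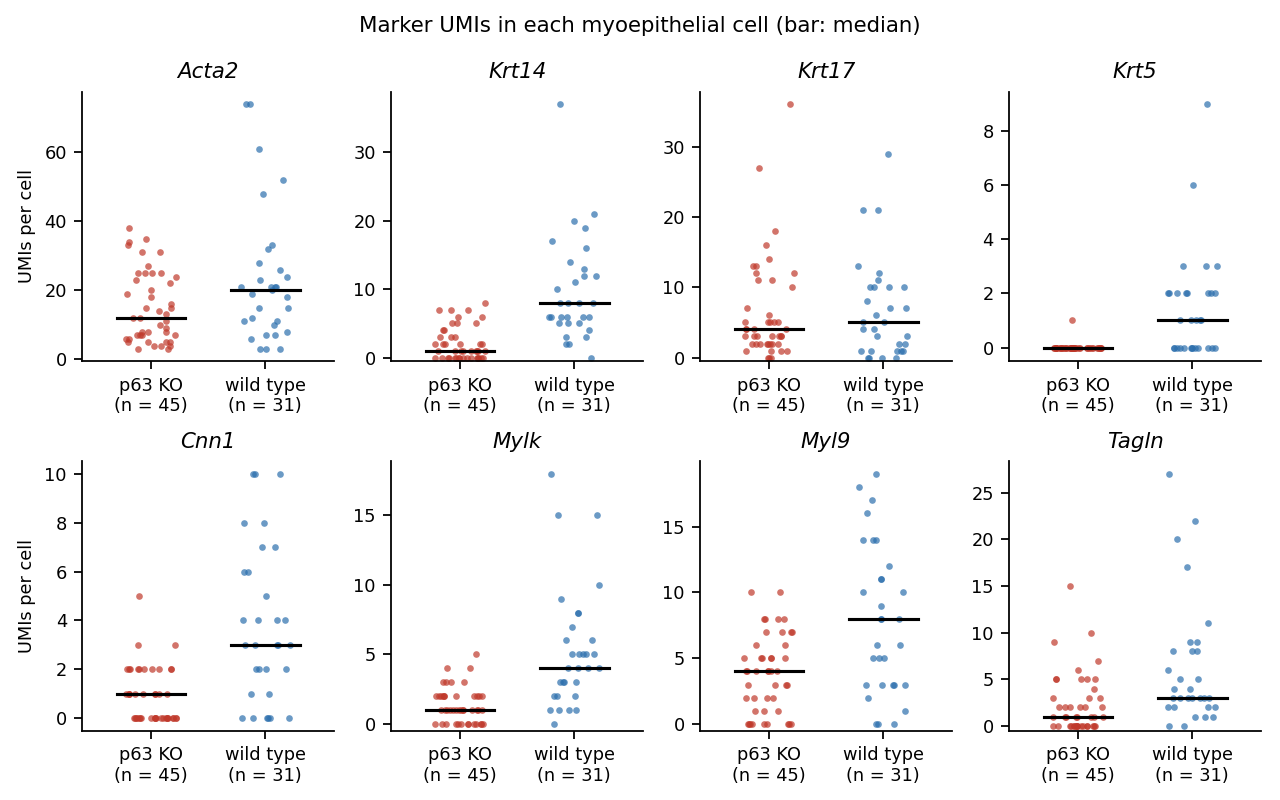
UMIs per cell (vertical axes, linear) of the 3 genes that chose the cells, of Krt5 and of 4 contractile genes, for 45 KO cells at the left and 31 wild-type cells at the right of each panel; each point is 1 cell and the bar is the median. Acta2 reaches 38 UMIs in KO and 74 UMIs in wild-type cells, Krt5 is at 0 in all KO cells but 1, and contractile genes lie lower in KO cells, whose median depth was 2447 UMIs against 3544 UMIs in wild-type cells.

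The cells carried further contractile genes that the rule had not used. Myl9 had a UMI in 80.0% of KO and 90.3% of wild-type cells, Mylk in 71.1% of KO and 96.8% of wild-type cells, and Cnn1 in 51.1% of KO and 80.6% of wild-type cells. All of Cnn1, Mylk and Myl9 were present in 16 KO and 23 wild-type cells, and none of them in 1 KO and 0 wild-type cells. Contractile genes without Acta2 made up a median of 1.42% of a cell's UMIs in the KO library (0.269 to 4.19%) and 1.56% in the wild-type library (0.313 to 5.29%). Cnn1 had 0 UMIs in immune cells of both libraries, where Myl9 had 0 UMIs in KO and 2 in wild-type cells. Oxtr, the oxytocin receptor, was at 0 in both libraries, which allows a share of cells with a UMI of up to 6.67% in KO and 9.68% in wild-type cells.

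Defining markers of mural, endothelial and immune cells were at or near 0, whereas RNA of other gland cells and of red cells was present. The 8 mural markers summed to 1 UMI in KO and 4 UMIs in wild-type cells, the 6 endothelial markers to 8 UMIs in 4 KO cells and 10 UMIs in 6 wild-type cells, and the 6 immune markers to 1 UMI in KO and 8 in wild-type cells. Granular tubule markers summed to 490 UMIs in KO and 1167 in wild-type cells, intercalated duct markers to 737 UMIs in KO and 1184 in wild-type cells, and acinar markers to 1050 UMIs in KO and 763 in wild-type cells. Red cell markers summed to 210 UMIs in KO and 1891 in wild-type cells, and the part of these lists in the results was not tested. Of the mural markers, Des, Cspg4 and Rgs5 had 0 UMIs in both libraries, Notch3 had 0 in KO and 2 in wild-type cells, and Pdgfrb had 1 in KO and 0 in wild-type cells. Col1a1 and Col3a1, fibroblast collagens, and Ptprc, a leukocyte gene, were at 0 in both. Decorin (Dcn), a matrix proteoglycan listed as a fibroblast marker, was nevertheless common, in 82.2% of KO cells at 1063 CPM and in all 31 wild-type cells at 1404 CPM. The glial marker S100b was at 0, and Sox10, a transcription factor shared by glia and salivary epithelium, had 11 UMIs in KO and 3 in wild-type cells. The epithelial genes Krt18 (86.7% of KO and 67.7% of wild-type cells) and Epcam (66.7% of KO and 64.5% of wild-type cells) were present in most cells of both libraries. Cells that should lack them held them too. Krt18 was found in 38.7% of KO and 46.2% of wild-type immune cells, and in 36.1% of KO and 55.3% of wild-type endothelial cells. Epcam was found in 7.55% of KO and 33.8% of wild-type immune cells, and in 14.2% of KO and 40.4% of wild-type endothelial cells. The label of myoepithelial cells rests on the rule's genes and on Cnn1, Mylk, Myl9, Tagln and Myh11, without the oxytocin receptor. Mural cells were taken as cells with Acta2 and Rgs5 but no Krt14, Krt17 or Pecam1 UMI, 3 in KO and 1 in wild type. They held Mylk, Myl9, Tagln and Myh11 in both libraries, so these genes do not set myoepithelial cells apart from mural cells. Cnn1 had 0 UMIs in those few mural cells.

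Just outside the rule stood cells with fewer tags of the same genes. At 2 Acta2 UMIs, 3 KO and 2 wild-type cells met the other conditions, and 2 KO and 3 wild-type cells sat at the limit of 3. With 1 keratin UMI there were 6 further KO cells and 1 further wild-type cell, while 9 KO cells and 1 wild-type cell sat at the limit of 2. The presence of Pecam1 removed 7 KO and 3 wild-type cells, and Rgs5 removed 2 KO and 0 wild-type cells.

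A group of 16 KO cells, and 0 wild-type cells, had at least 3 Acta2 UMIs but 0 UMIs of Krt14, Krt17, Pecam1 and Rgs5. They were shallower, with a median of 1830 UMIs (1196 to 2989). Tpm2 was found in all 16, Myl9 in 15, Tagln in 10, Myh11 in 9 and Cnn1 in 6. Epithelial genes were present as well, with Krt18 in 12, Krt8 in 9 and Epcam in 7 of them. Krt18 and Epcam were also found in some immune and endothelial cells, as given above. Of genes described below against basal cells, Osr1 was found in 9 of the 16, Il17b in 5 and Pcp4 in 2. Pcp4 stood at 65.1 CPM in the 16 cells, against 318 CPM in the KO cells that met the rule. The mural gene Pdgfrb was at 0, Notch3 and Des each had a UMI in 1 cell, and Krt5 was at 0. Cldn10 was found in 9 and Csn3 in 4 of the 16, a pair of genes described below in the KO cells that met the rule. With at least 2 UMIs of epithelial adhesion genes in place of the keratin condition, 46 KO and 27 wild-type cells met the rule. Cells with no keratin RNA and cells with too little of it to be sampled at this depth cannot be told apart.

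Smooth muscle genes are classically controlled by serum response factor, which binds a motif called the CArG box. Since Acta2 chose the cells and Myl9 had the highest level of the 3 markers left, their boxes are shown as 30 bases of the GRCm38.p6 sequence from RefSeq, 5′ to 3′ on the strand of the gene, with the 10 bases of the box in capitals. In the strict form the box is CC, 6 bases that are each A or T, then GG, and the relaxed form allows 1 of those 6 bases to be C or G. The first Acta2 site covers chr19:34255438-34255467 on the minus strand and the second chr19:34255388-34255417, and the Myl9 sites cover chr2:156775293-156775322 and chr2:156775355-156775384 on the plus strand.
Acta2 site 1: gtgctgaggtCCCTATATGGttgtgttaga
Acta2 site 2: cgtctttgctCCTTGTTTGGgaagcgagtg
Myl9 site 1: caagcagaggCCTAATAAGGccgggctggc
Myl9 site 2: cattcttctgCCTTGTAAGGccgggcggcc
The boxes start 84 and 34 bases before the RefSeq start of Acta2 at position 34255373, and 161 and 99 bases before that of Myl9 at position 156775464. The GENCODE model of Acta2 starts further upstream, so both Acta2 boxes lie inside that model, while the Myl9 boxes lie before the GENCODE start as well. Only the first Myl9 box is of the strict form. Searching the 250 bases before each start on both strands found the strict form in 6 of 34 promoters (17.6%) of the 28 contractile genes with a promoter in the table, against 482 of all 32851 promoters (1.47%). The relaxed form was found in 8 of the 34 (23.5%) and in 2823 of all promoters (8.59%). A match is a description of letters and no evidence that the factor binds there.

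The nearest relatives in the same tissue, basal keratin cells without Acta2, were used to show what set myoepithelial cells apart within each library. These comprised 90 KO and 425 wild-type cells, with medians of 3512.5 and 3870 UMIs. A call needed 50 or more UMIs of the gene over the 2 cell groups compared and a 95% exact interval of the ratio of 2 Poisson counts wholly beyond 2-fold, which is a rule of size in place of a test. In the KO library 4.33% of 1339 genes were higher and 2.46% lower in myoepithelial cells, and in the wild-type library 2.46% of 4272 genes were higher and 0.562% lower. Of 1321 genes measured in both libraries, 28 (2.12%) were higher and 6 (0.454%) lower in myoepithelial cells of both the KO and the wild-type library.

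Contractile genes led the difference. Of the 14 listed contractile genes measured in both libraries, Tagln, Mylk, Myl9, Tpm2, Cald1 and Csrp1 were higher in both, beside 2.12% of all 1321 genes. The list had a median log2 ratio of 1.34 in the KO and 1.63 in the wild-type library, against -0.08 and 0.11 over all measured genes. Acta2 itself chose the cells and is not counted. Tagln had 105 UMIs in KO myoepithelial cells against 0 in KO basal cells, and 195 UMIs in wild-type myoepithelial cells against 1 in wild-type basal cells. Myl9 was 147-fold higher in the KO library (49.3 to 718) and 303-fold higher in the wild-type library (167 to 616). Mylk was 7.05-fold higher in the KO library (4.27 to 12.0) and 24.5-fold higher in the wild-type library (18.9 to 32.0), where it had 421 CPM in KO and 1092 CPM in wild-type myoepithelial cells.

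Genes outside the contractile apparatus were also among those with the highest ratios. Ranked by the lower of the 2 ratios, among genes with at least 20 UMIs in the myoepithelial cells of each library, the 10 leading genes were Myh11, Tagln, Pcp4, Cnn1, Il17b, Myl9, Tpm2, Osr1, Pgf and Bgn. Il17b, a cytokine gene, had 61 UMIs in KO myoepithelial cells against 0 in KO basal cells, and 26 UMIs in wild-type myoepithelial cells against 1 in wild-type basal cells. Pcp4, a calmodulin-binding peptide, had 46 UMIs against 0 in the KO library and 192 against 3 in the wild-type library. Both genes had few or no UMIs in basal cells. Osr1, a transcription factor, had 31 UMIs against 1 in the KO and 43 against 3 in the wild-type library. Pgf, a growth factor of the VEGF family, had 33 against 3 in the KO and 28 against 6 in the wild-type library. Bgn, the proteoglycan biglycan, had 22 against 2 in the KO and 40 against 3 in the wild-type library. None of these 5 genes had 50 UMIs in both libraries, so none is among the 28.

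Calcium handling and signalling genes were among the 28. Of the listed receptors and enzymes of contraction and calcium, 4 were measured in both libraries and only Atp2a2 passed, beside 2.12% of all 1321 genes. Atp2a2, the calcium pump of the sarcoplasmic reticulum, was 3.70-fold higher in the KO (2.48 to 5.56) and 4.16-fold higher in the wild-type library (2.91 to 5.84). Plcb4, a phospholipase C that releases calcium through inositol phosphates, was 7.47-fold higher in the KO (4.24 to 13.8) and 5.64-fold higher in the wild-type library (3.43 to 9.05). Tns1, a focal adhesion protein, was 7.62-fold higher in the KO (4.33 to 14.1) and 17.2-fold higher in the wild-type library (9.63 to 31.2). Of 25 measured stress genes, Fos and Socs3 passed in both libraries, beside 2.12% of all 1321 genes. Fos was 2.70-fold higher in the KO and 2.72-fold in the wild-type library, and Socs3 4.65-fold in the KO and 6.87-fold in the wild-type library.

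The 6 genes lower in myoepithelial cells of both libraries were Rrad, Sox4, Ndrg1, Ly6d, Tnfrsf12a and Fosl1. Fosl1, a partner of Jun in the AP-1 factor, had 2 UMIs in KO myoepithelial cells against 74 in KO basal cells, and 1 UMI in wild-type myoepithelial cells against 267 in wild-type basal cells. Sox4, a transcription factor of progenitor cells, was 3.86-fold lower in the KO and 2.60-fold lower in the wild-type library. Krt14 and Krt17 chose both cell groups and are not compared. Among the simple epithelial keratins, Krt18 had 3238 CPM in KO myoepithelial cells against 5317 CPM in KO basal cells, and 2695 CPM in wild-type myoepithelial cells against 2426 CPM in wild-type basal cells, neither past the rule.

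**Figure D2:**
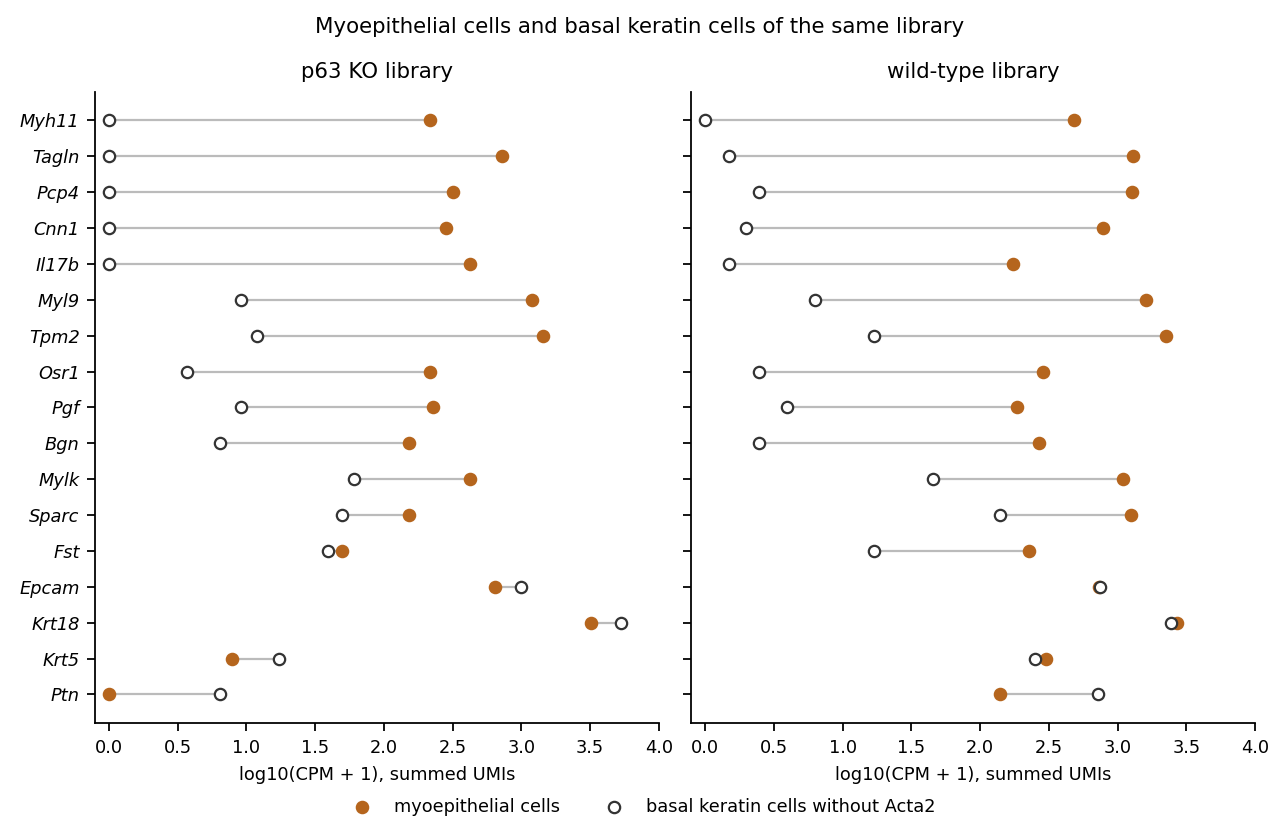
Levels of the 10 leading genes and of 7 further named genes in myoepithelial cells (filled) and in basal keratin cells without Acta2 (open), in the KO library at the left and the wild-type library at the right; the horizontal axes give the log10 of CPM plus 1. Contractile genes, Pcp4, Il17b, Osr1, Pgf and Bgn lie far to the right in myoepithelial cells of both libraries, whereas Epcam and Krt18 lie close together and Ptn lies higher in basal cells.

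The comparison of genotypes asked what myoepithelial cells looked like in the KO gland. KO cells had less of the matrix and matrix-associated genes Sparc, Igfbp5 and Igfbp2, and less Pcp4, Mia and Vim. They had more Csn3, Cldn10, Por, Lyz2 and Hist1h1c, and more of the stress genes Hspb1, Hspa1a, Junb and Socs3. The rule of size was applied to 804 genes with at least 50 UMIs, leaving out those that chose the cells. It called 32 (3.98%) higher and 20 (2.49%) lower in KO cells. With class totals that leave out mitochondrial, ribosomal protein and haemoglobin genes the split was 26 higher and 27 lower. The median log2 ratio, with 10 CPM added to both sides, was -0.04 over these 804 genes and 0.05 over the 3969 genes with at least 10 UMIs.

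Many of these calls need the full number of UMIs. With every myoepithelial cell reduced at random to 1000 UMIs, 3 genes were higher and 6 lower. Reduction leaves fewer UMIs for the rule, and the ratios of single genes could stay large: Sparc stood at 0.0861 (0.0331 to 0.189) in reduced cells, Cldn10 at 15.8 (2.57 to 653) and Hspb1 at 2.20 (1.88 to 2.59), whose interval no longer clears 2-fold. Without the cell of each library that held most of a gene's UMIs, 26 of the 32 and 19 of the 20 still passed in the same direction; Chp1, Wfdc12, Cp, Trp53inp1, Prol1, Pip and Klk1 did not.

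Because free RNA in droplets reaches every cell, the same comparison was made in immune cells (106 KO and 65 wild-type cells, with medians of 1621 and 2612 UMIs) and in endothelial cells (169 and 47 cells, 1812 and 2821 UMIs). Of the 32 genes higher in KO myoepithelial cells, 14 were called higher in endothelial cells as well and 2 in immune cells. Of the 20 lower genes, 5 were called lower in endothelial cells, 4 of them haemoglobin genes, and 2 in immune cells. The share of all measured genes called in these classes was not counted, so the overlaps cannot be set against it. A shift of at least 1 log2 unit in the same direction was absent from both classes for 11 of the higher genes (Chp1, Cp, Tm4sf1, Prol1, Hspb1, Pip, Hk2, Lyz2, Rnase4, Cldn10 and Fbxo32) and for 5 of the lower genes (Vim, Apoe, Klk1b26, Klk1 and Taldo1). Absence of a shift does not show that free RNA had no part in these genes. Klk1 stood at 3287 CPM in KO myoepithelial and 4886 CPM in KO immune cells. Some genes had few UMIs there, such as Cp with 0 in KO and 8 in wild-type immune cells. The part of depth and of free RNA was not tested for any of the calls.

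**Figure D3:**
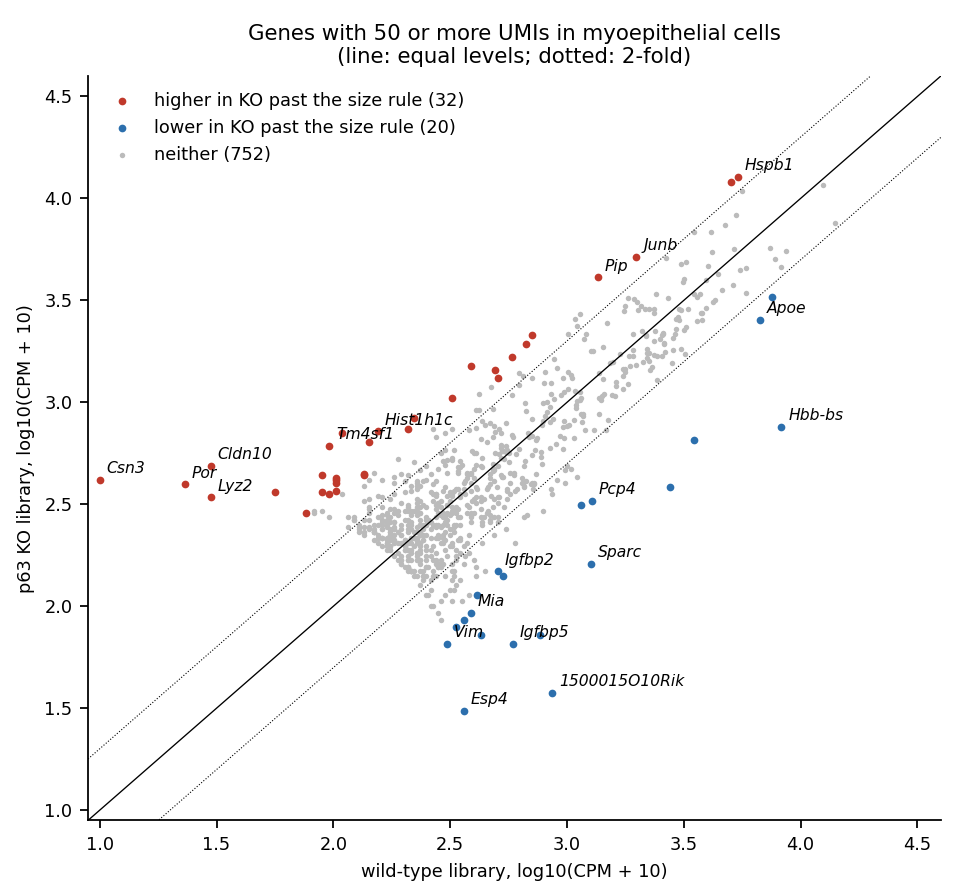
Levels of the 804 genes in myoepithelial cells as log10 of CPM plus 10, with the wild-type library on the horizontal and the KO library on the vertical axis; the solid line marks equal levels and the dotted lines 2-fold. The 32 genes higher in KO cells (red) include Csn3, Por, Cldn10 and Lyz2 at low wild-type levels, and the 20 lower genes (blue) include Sparc, Igfbp5, Pcp4, Esp4 and 1500015O10Rik.

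Contractile genes as a group stood slightly below the wild type. None of the 17 listed contractile genes with at least 50 UMIs was higher or lower past the rule, and over the 26 with at least 10 UMIs the median log2 ratio was -0.27, with 11 above and 15 below 0. Over the alternative settings this median ranged from -0.89 to 0.00, the last with epithelial adhesion genes in place of keratins in the rule. Cnn1 (GRCm38 chromosome 9, 22099216 to 22109630, plus strand) had 283 CPM in KO and 781 CPM in wild-type cells, a ratio of 0.362 (0.248 to 0.521). Mylk (chromosome 16, 34745210 to 35002420, plus strand) had 421 CPM in KO and 1092 CPM in wild-type cells, a ratio of 0.386 (0.283 to 0.520). Both intervals reached just above 0.5, and both genes passed the rule as lower under several other settings, among them an Acta2 minimum of 5 UMIs and median-ratio scaling.

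The other members spread to both sides of equality. Myl9 (chromosome 2, 156775420 to 156781658, plus strand) had 1195 CPM in KO and 1615 CPM in wild-type cells (ratio 0.739, 0.605 to 0.902). Tagln had 725 CPM in KO and 1291 CPM in wild-type cells (ratio 0.562, 0.439 to 0.716), while Tpm2 and Myl6, a light chain of nonmuscle and smooth muscle myosin, stood at -0.65 and -0.85 log2. Csrp1, a LIM protein of the actin cytoskeleton, went the other way at 0.85 log2, with 312 UMIs in KO and 180 in wild-type cells, and Lmod1, leiomodin, stood at 1.27 log2. Actg2, gamma smooth muscle actin, had 1 UMI in KO and 30 in wild-type cells, under the 50 UMIs that the rule asks for. Carmn, a long noncoding RNA of smooth muscle, had 30 UMIs in KO and 4 in wild-type cells (ratio 7.82, 2.76 to 30.6), also too few for the rule. Srf, which encodes serum response factor, had 15 UMIs in KO and 17 in wild-type cells, and the list of smooth muscle regulators had a median of 0.06 log2 over 9 genes.

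Basal keratins other than the chosen pair had few or no UMIs in KO cells. Krt5 (chromosome 15, 101707070 to 101712898, minus strand), the partner of keratin 14 in basal filaments, had 1 UMI in the 45 KO cells and 45 UMIs in 18 of the 31 wild-type cells. At 6.91 CPM in KO and 298 CPM in wild-type cells the ratio was 0.0232 (0.000574 to 0.136), but the 46 UMIs in all fell short of the rule. Reduced to 1000 UMIs per cell, 1 KO and 8 wild-type cells held a Krt5 UMI. Krt15 had 0 UMIs in KO and 12 in wild-type cells, at least 3.84-fold lower against a floor of 3 counts in the KO class, while the exact interval starts at 2.66-fold. Wild-type endothelial cells held 11 UMIs of Krt5 (54.5 CPM, in 17.0% of cells) and 11 of Krt15 (54.5 CPM, in 6.38% of cells), and KO endothelial cells held 0 of both. Krt15 in wild-type myoepithelial cells, at 79.4 CPM in 6 cells, is therefore not far above this background, whereas Krt5 at 298 CPM is further above it. Basal keratin cells without Acta2 differed in the same direction, with Krt5 at 16.3 CPM in KO and 249 CPM in wild-type cells. There Krt15 had 0 UMIs in KO and 608 UMIs in wild-type cells. The low Krt5 and Krt15 of the KO library were thus not particular to myoepithelial cells. The simple keratins Krt8 and Krt18 stood at 0.02 and 0.26 log2, and Krt7 at -1.56 with 28 UMIs in KO and 89 in wild-type cells.

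Trp63 was detected in both genotypes. It had 8 UMIs in 8 KO cells (17.8%, 8.002 to 32.1%) and 15 UMIs in 12 wild-type cells (38.7%, 21.8 to 57.8%), so the KO level was 0.556 of the wild-type level, with counting limits of 0.204 and 1.398 on either side of 1. After reduction to 1000 UMIs, 2 KO and 3 wild-type cells held a UMI. Immune cells had 0 Trp63 UMIs in both libraries, which allows shares of up to 2.83% in KO and 4.62% in wild-type cells. Endothelial cells had 1 Trp63 UMI in KO and 3 in wild type (14.9 CPM in wild type). Over all kept cells Trp63 had 20 UMIs in the KO and 149 in the wild-type library, 6.45-fold lower in KO by CPM (4.03 to 10.9). Myoepithelial cells, 1.86% of cells in each, held 40.0% of those UMIs in the KO and 10.1% in the wild-type library. Since the reads start at transcript ends, they show a deletion directly only if it took away the 3' end of Trp63, about which the labels are silent.

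The list of p63-associated basal genes lay mostly below the wild type. None of its 3 members with at least 50 UMIs, outside the rule, passed, and 17 members with at least 10 UMIs had a median of -0.49 log2, with 4 above and 13 below 0. Itgb4, an integrin of hemidesmosomes, stood at -1.09 log2 with 6 UMIs in KO and 15 in wild-type cells. Of the 3 with at least 50 UMIs, the integrin gene Itga6 stood at 0.56, Perp, a desmosomal protein, at -0.02 and Sfn, the 14-3-3 sigma protein, at -0.49 log2. This median was -0.90 with an Acta2 minimum of 5 UMIs and 0.26 with cells reduced to 1000 UMIs. Hemidesmosome and basement membrane genes had a median of -0.20 over 13 members, of which 1 had enough UMIs for the rule and did not pass.

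**Figure D4:**
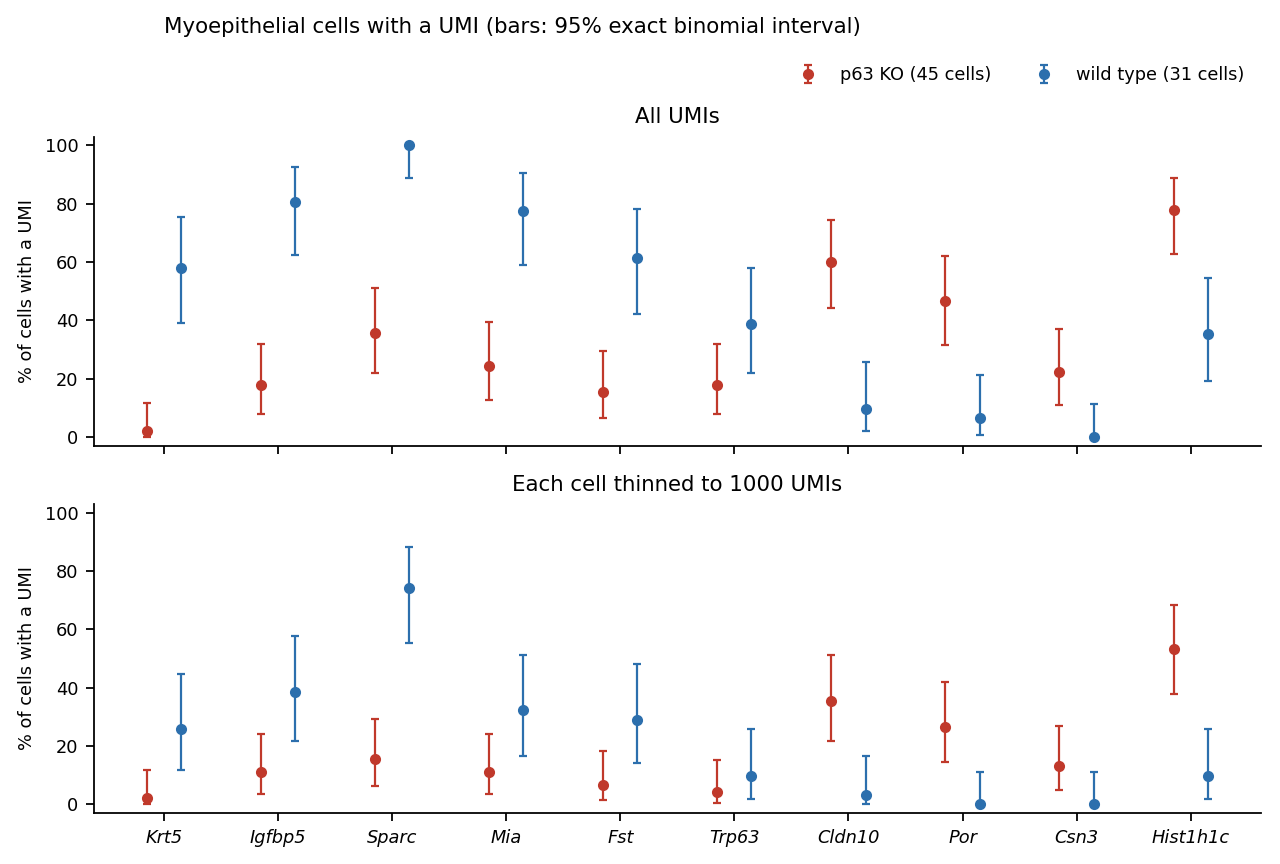
Percent of myoepithelial cells with at least 1 UMI of 10 named genes (vertical axes), KO at the left and wild type at the right of each pair, with 95% exact binomial intervals as bars; the upper panel uses all UMIs and the lower panel cells reduced to 1000 UMIs. Krt5 stands at 2.22% of KO and 58.1% of wild-type cells and Cldn10 at 60.0% of KO and 9.68% of wild-type cells, whereas the intervals of Trp63 overlap in both panels.

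The matrix genes Sparc, Igfbp5 and Igfbp2 fell in KO cells. They were 3 of 10 members with at least 50 UMIs, beside 2.49% of all 804 genes lower, and none was higher, and the 13 members with at least 10 UMIs had a median of -0.40 log2. Sparc (chromosome 11, 55394500 to 55423183, minus strand), a collagen-binding matrix protein, had 152 CPM in KO and 1258 CPM in wild-type cells and was 8.28-fold lower in KO cells (5.31 to 13.5). A Sparc UMI was found in 16 of 45 KO cells and in all 31 wild-type cells, and after reduction to 1000 UMIs in 7 KO and 23 wild-type cells. In endothelial cells, which also express it, Sparc stood at -0.65 log2. In basal keratin cells without Acta2 it had 48.9 CPM in KO and 138 CPM in wild-type cells, lower in the KO library as well.

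Igfbp5 and Igfbp2 encode binding proteins of insulin-like growth factors and are neighbours on chromosome 1. Igfbp5 (72857932 to 72874884, minus strand) had 55.2 CPM in KO and 576 CPM in wild-type cells, 10.4-fold lower in KO cells (5.06 to 24.9). Igfbp2 (72824503 to 72852474, plus strand) had 138 CPM in KO and 497 CPM in wild-type cells, 3.60-fold lower (2.17 to 6.22). In basal keratin cells without Acta2, Igfbp5 had 10.9 CPM in KO and 147 CPM in wild-type cells. An Igfbp2 UMI was found in 2.22% of those cells in KO and 13.6% in wild type. The lower values of Sparc, Igfbp5 and Igfbp2 in the KO library were thus not confined to myoepithelial cells. Postn, periostin, had 2 UMIs in KO and 44 in wild-type cells, too few for the rule. Other members did not pass: Dcn stood at -0.40, Thbs1, thrombospondin, at -0.03, Timp3, an inhibitor of metalloproteinases, at 0.53, and Ccn1, a matricellular protein, at 1.24 log2.

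Pcp4 (chromosome 16, 96467606 to 96525793, plus strand), among the 10 leading genes against basal cells, had 318 CPM in KO and 1271 CPM in wild-type cells. It was 4.002-fold lower in KO cells (2.89 to 5.65) and was found in 29 of 45 KO and 30 of 31 wild-type cells. Immune cells had 0 Pcp4 UMIs in both libraries, and endothelial cells had 0 in KO and 3 in wild type. Of the 40 named genes that passed the rule, Pcp4 and Sparc were the only 2 that passed it under each of the 15 alternative settings that kept the rule of size.

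The remaining lower genes had varied roles. Mia, a small secreted protein, had 12 UMIs in KO and 57 in wild-type cells (4.55-fold lower, 2.42 to 9.33), and Vim, the intermediate filament vimentin, had 8 in KO and 45 in wild-type cells (5.39-fold, 2.52 to 13.2). Prss23, a serine protease, had 10 in KO and 49 in wild-type cells, and Taldo1, the pentose phosphate enzyme transaldolase, had 11 in KO and 53 in wild-type cells. Apoe, a lipid carrier, was abundant in both, at 2527 CPM in KO and 6680 CPM in wild-type cells. Atp5g1, a subunit of ATP synthase, and Ly6d, a surface protein of basal epithelium, were lower in immune cells as well. The gene model 1500015O10Rik, outside the rule for named genes and chosen after its values were seen, had 4 UMIs in KO and 129 in wild-type cells, with 0 in immune cells of both libraries.

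Fst, whose protein the title of the series names, was found in 7 KO cells (15.6%, 6.49 to 29.5%) and 19 wild-type cells (61.3%, 42.2 to 78.2%). It had 7 UMIs in KO and 34 in wild-type cells, or 48.3 CPM in KO and 225 CPM in wild-type cells, a ratio of 0.215 (0.0803 to 0.492), with 41 UMIs in all and so too few for the rule. All 7 KO cells with Fst also held Krt14, but the keratin condition bears on this: of the 16 KO cells with Acta2 and no Krt14 or Krt17, 4 held Fst, with 6 UMIs or 195 CPM. After reduction to 1000 UMIs, 3 KO and 9 wild-type cells held an Fst UMI. Immune cells had 0 Fst UMIs in both libraries, and endothelial cells had 2 in KO and 2 in wild type.

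Against basal keratin cells of the same library, Fst was at 1.27-fold in KO myoepithelial cells (0.434 to 3.36) and 14.1-fold in wild-type ones (8.47 to 23.5), a difference that was not tested. Myoepithelial cells held 9.72% of all Fst UMIs of the KO and 34.0% of those of the wild-type library. The wider list of follistatin, activin and TGF-beta genes had a median of 0.06 log2 over 15 members, and neither of the 2 with at least 50 UMIs passed. Sostdc1, a secreted BMP antagonist, stood at -1.60 log2 with 12 UMIs in KO and 41 in wild-type cells, and Tgfbr3, betaglycan, at 1.19 with 26 UMIs in KO and 11 in wild-type cells.

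Growth factors of basal cells had a median of -0.46 log2 over 16 members. Ptn, pleiotrophin, had 0 UMIs in KO and 21 in wild-type cells, and Mdk, midkine, of the same family, had 4 in KO and 28 in wild-type cells. Edn1, endothelin 1, had 8 UMIs in 2 KO cells and 28 UMIs in 9 wild-type cells. Pdgfa, a chain of platelet-derived growth factor, at 35 UMIs in KO and 64 in wild-type cells, was the only member with enough for the rule and did not pass (ratio 0.570, 0.366 to 0.874).

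Among the genes higher in KO cells, Csn3, Cldn10 and Por stood out by being almost missing from wild-type myoepithelial cells. Csn3 (chromosome 5, 87925579 to 87932665, plus strand), the milk protein kappa-casein, had 59 UMIs in 10 KO cells and 0 in the 31 wild-type cells, at least 20.5-fold higher against a floor of 3 counts in the wild-type class, while the exact interval starts at 16.2-fold. One KO cell held 33.9% of these UMIs. Immune cells had 0 Csn3 UMIs in both libraries and endothelial cells 14 in KO and 0 in wild type.

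Cldn10 (chromosome 14, 118787908 to 118875489, plus strand), a claudin of tight junctions, had 69 UMIs in 27 of 45 KO cells and 3 UMIs in 3 of 31 wild-type cells, 24.0-fold higher in KO cells (7.87 to 119). It was the only one of 9 listed junction genes with at least 50 UMIs to pass, in a list whose median was -0.11 log2. Immune cells had 0 Cldn10 UMIs in KO and 9 in wild type, and endothelial cells 15 in KO and 14 in wild type. Por, which donates electrons to cytochrome P450 enzymes, had 56 UMIs in KO and 2 in wild-type cells (29.2-fold, 7.72 to 247), and endothelial cells had 39 in KO and 2 in wild type.

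Further genes were higher at moderate levels. Hist1h1c, a linker histone, was found in 35 of 45 KO and 11 of 31 wild-type cells and was 4.88-fold higher in KO cells (3.06 to 8.13). Rnase4, a secreted ribonuclease, was 4.75-fold higher (2.90 to 8.13), Tm4sf1, a membrane protein, 6.98-fold (3.88 to 13.6) and Fmo2, a flavin-containing monooxygenase, 7.60-fold (3.43 to 19.8). Ppp1r2, an inhibitor of protein phosphatase 1, was 5.39-fold higher and Serinc3, a membrane protein, 4.40-fold, and both, like Fmo2, were called higher in KO endothelial cells as well.

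Several stress and immediate early genes rose in KO cells. Of 24 members with at least 50 UMIs, Hspb1, Hspa1a, Junb, Ier3, Socs3 and Zfp36 passed as higher, beside 3.98% of all 804 genes, and none as lower, and the 26 members with at least 10 UMIs had a median of 0.71 log2, with 24 above 0. Hspb1, a small heat shock protein of actin-rich cells, had 12754 CPM in KO and 5363 CPM in wild-type cells, 2.38-fold higher (2.188 to 2.586). Junb, a subunit of AP-1, was 2.61-fold higher (2.28 to 2.99) and Socs3, which dampens cytokine signals, 2.93-fold (2.32 to 3.72). Such genes are known to respond to dissociation, whose part in the result was not tested. In endothelial cells Junb, Socs3, Zfp36, Hspa1a and Ier3 were called higher in the KO library too. Genes that respond to glucocorticoids and nutrients had a median of 1.01 log2 over 14 members, with Txnip, a regulator of thioredoxin, as the 1 of 8 past the rule at 1.38. Txnip lost its call in 8 of 15 alternative settings, and in endothelial cells Txnip, Mt1 and Mt2 of this list were called higher in the KO library at 2.29, 2.01 and 2.28 log2.

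Defence genes were higher as well. Cxcl1, a chemokine for neutrophils, Cp, the copper carrier ceruloplasmin, Lcn2, which binds bacterial iron carriers, and Lyz2, a lysozyme, were higher, 4 of the 5 members with at least 50 UMIs beside 3.98% of all 804 genes, and the list of 7 genes with at least 10 UMIs had a median of 1.83 log2. Lyz2 had 48 UMIs in 16 KO cells and 3 UMIs in 2 wild-type cells, 16.7-fold higher in KO cells (5.38 to 83.8), with 33.3% of the KO UMIs in 1 cell. In immune cells, where Lyz2 belongs, it had 205 UMIs in KO and 550 in wild type. Cxcl1 was 3.68-fold higher (2.44 to 5.73), Lcn2 4.47-fold (2.47 to 8.66) and Cp 3.40-fold (2.01 to 6.03). Cxcl1 was also called higher in KO immune cells and Lcn2 in KO endothelial cells. Of 15 alternative settings, Cp lost its call in 11 and Lyz2 in 8, and Cp also lost it without the top cell of each library.

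**Figure D5:**
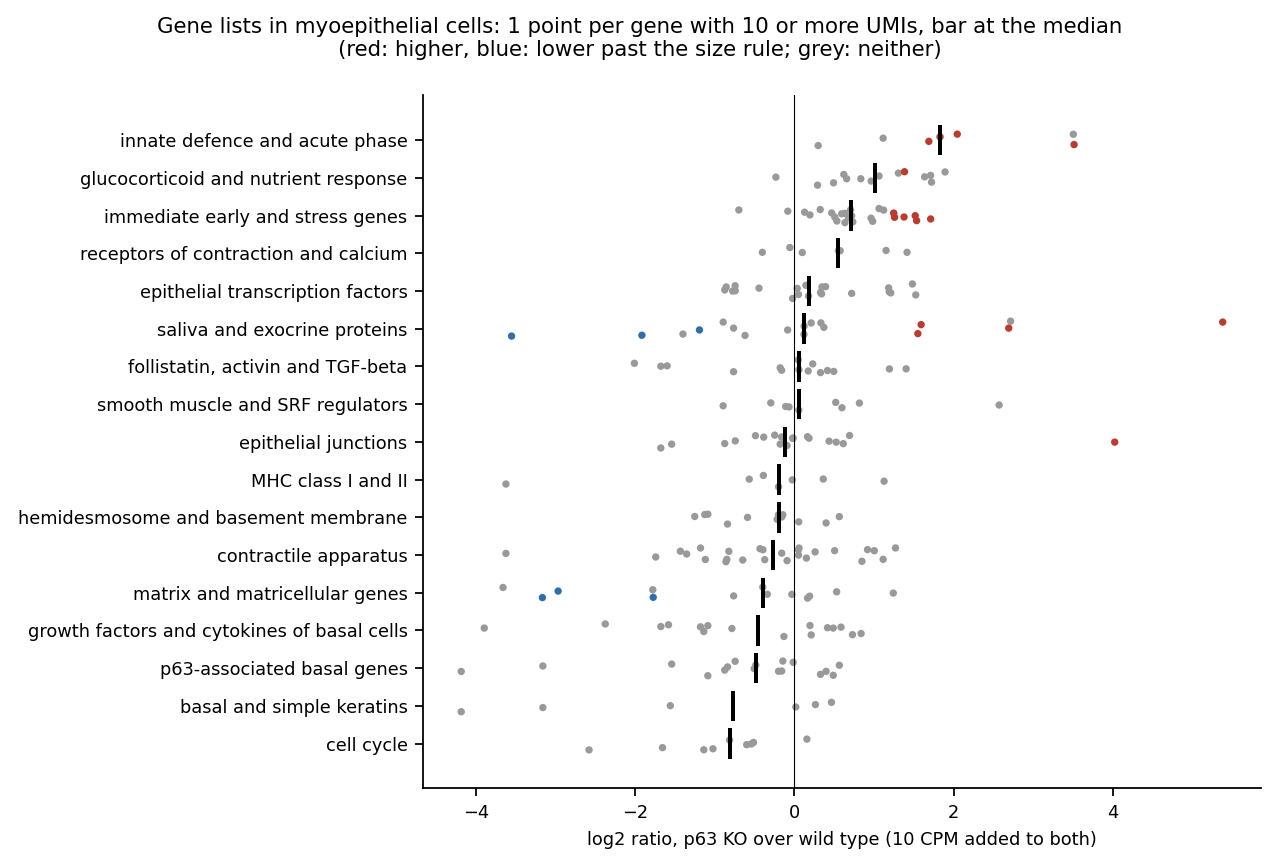
Log2 ratio of KO over wild-type myoepithelial cells, with 10 CPM added to both sides, for 17 gene lists ordered by their median (bar); each point is a gene with at least 10 UMIs, red where higher and blue where lower in KO cells past the rule of size, and the genes of the cell rule are left out. Defence genes have the highest median, 1.83, cell cycle genes the lowest, -0.81, and the contractile list lies at -0.27 with no coloured point.

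Saliva proteins, which belong to other cells of the gland, moved both ways. At least 1 UMI of an acinar marker was found in 44 of 45 KO and in all 31 wild-type cells. Of 13 listed genes with at least 50 UMIs, Pip, Prol1, Csn3 and Wfdc12 were higher and Klk1, Esp4 and Esp18 lower in KO cells, beside 3.98% higher and 2.49% lower of all 804 genes, and the median of 18 members was 0.12 log2. Pip, a secreted acinar protein, had 593 UMIs in KO and 204 in wild-type cells, but 1 KO cell held 66.6% and 1 wild-type cell 52.0% of them. Without those cells the ratio was 1.93 (1.505 to 2.48), which does not pass. Of the Wfdc12 UMIs of the KO library, 65.3% lay in 1 cell.

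Smgc, a mucin-like gene of the gland, was found in 5 of 45 KO cells (11.1%) and 29 of 31 wild-type cells (93.5%), and in 53 of 65 wild-type immune cells but 6 of 106 KO immune cells. Haemoglobin was lower in KO myoepithelial cells too: Hbb-bs had 108 UMIs in KO and 1249 in wild-type cells, of which 1 wild-type cell held 53.8%. In immune cells, however, Hbb-bs stood at -0.43 and Hba-a1 at 0.21 log2, against -7.39 for Smgc. In endothelial cells Hbb-bs stood at -2.73 and Hba-a1 at -2.14 log2. Keratin UMIs were found in cells that should lack them as well. Krt14 had 0 UMIs in KO and 62 in wild-type immune cells, and Krt17 had 0 in KO and 38 in wild-type immune cells. Their part in the number of cells that met the rule was not tested.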

How the data were processed

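For each library the authors deposited 1 table of UMI counts, neither scaled nor logged. The submitters' processing notes name, without roles, Seurat 3.1.2, Cell Ranger 2.1.0, the build mm10 and bcl2fastq 2.19.1. A rule for the choice of these barcodes was not given in the sources used here. Symbols for 27722 of 27998 Ensembl identifiers came from GENCODE mouse M21, whose GRCm38 positions are printed, and the other 276 were used as identifiers. No column of per-sample values was left unused (0).

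Cells were kept with at least 200 genes and less than 20% mitochondrial UMIs. Immune cells held a Ptprc UMI and at least 3 UMIs of Tyrobp, Fcer1g, Laptm5 and Coro1a together. Endothelial cells held a Pecam1 UMI and at least 4 UMIs of Pecam1, Cdh5, Kdr and Egfl7 together. Both classes had fewer than 3 Acta2 UMIs. UMIs were summed per class and scaled to CPM. Ratios carry the exact conditional interval of 2 Poisson counts and shares the exact Clopper-Pearson interval, both at 95%; a count of 0 is bounded by 3 counts. PCR duplicates are collapsed by UMIs, and intervals and bounds cover counting error only. Scrublet, run in scanpy 1.11.5, marked 4 KO and 1 wild-type cells (0.165% and 0.0601%). Whether it missed doublets was not checked, so so few marks do not show that doublets are absent. Doublets were not removed. Python 3.11.15, numpy 2.4.6, scipy 1.17.1 and, for TMM scaling, edgeR 4.0.16 under R 4.3.3 were used. The scripts were tested on simulated data.

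The cells, the 28 gene lists (17 of pathways, 11 of other cell types) and the tests were chosen with earlier results of these data known. Named genes were the 6 markers, Trp63, Fst, Krt5 and Krt15, the 12 highest and 12 lowest log2 ratios past the size rule, of each list the members that passed and the 4 with the highest summed counts, and the 10 leading genes against basal cells. The ranking left out genes of mitochondria, ribosomal proteins, haemoglobins, immunoglobulins and sex chromosomes, and gene models. Other genes named were list members chosen after their values were seen. Cebpd and Muc19 are not in the tables under these names. A comparison with mural cells, 3 in the KO and 1 in the wild-type library, was too small to describe beyond the presence of contractile genes given above.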

Additional observations from a re-analysis of the deposited data

How the results depend on the processing

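No paired analysis was possible because each genotype had 1 library and the labels give no replicate numbers. The counts of genes past the size rule depended most on depth and on the minimum of UMIs. With myoepithelial cells reduced to 1000 UMIs, 3 genes were higher and 6 lower in KO cells. With all cells reduced before the rule was applied, 2 were higher and 5 lower. A minimum of 20 UMIs gave 51 higher and 40 lower, and no minimum 68 and 54. Under the other settings, which changed the Acta2 or keratin threshold, the cell filter, the doublets or the scaling, 24 to 36 were higher and 17 to 27 lower. TMM scaling gave 30 and 22, and median-ratio scaling 28 and 25. Added after seeing the data, leaving out cells with at least 10 Smgc UMIs gave 28 and 22, and leaving out each gene's top cell 28 and 23. The difference in the share of cells, KO minus wild type, was -0.0069 points and became 0.879 points with at least 500 genes and less than 10% mitochondrial UMIs. Of 40 named genes past the rule, 37 lost it under at least 1 of 15 settings and 39 never changed direction. Hba-a1 did, at 1.48 log2 with Krt17 alone in the keratin condition. That condition removed 7 KO and 9 wild-type cells, and 1 wild-type cell holds 64.2% of the Hba-a1 UMIs. The median of the contractile list ranged from -0.89 to 0.00 log2 and that of the keratin list from -0.89 to 0.40. Depth limits detection: a gene at 0 in 31 cells may still have a UMI in up to 9.68% of such cells.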

Other observations

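Lists not described above held few genes with enough UMIs. Cell cycle genes had a median of -0.81 log2 over 9 members, with 8 of them below 0. Ccnd1, cyclin D1, had 2 UMIs in KO and 20 in wild-type cells, and Ccnd2, cyclin D2, had 6 in KO and 23 in wild-type cells, both too few for the size rule. H2afz, a histone variant, was the only member with at least 50 UMIs and did not pass, at 43 UMIs in KO and 80 in wild-type cells. Antigen presentation genes had a median of -0.20 log2 over 7 members. The class I genes H2-K1 and H2-D1 stood at -0.03 and 0.36 log2, and Cd74, the invariant chain of class II, had 1 UMI in KO and 30 in wild-type cells, 33.3% of them in 1 cell. Endothelial cells had 15 Cd74 UMIs (39.9 CPM) in KO and 113 (560 CPM) in wild type, a call of lower as well, and the wild-type endothelial level exceeds the 199 CPM of wild-type myoepithelial cells.

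Receptors and enzymes of contraction and calcium had a median of 0.55 log2 over 7 members, none past the rule. Itpr1, the inositol trisphosphate receptor, had 28 UMIs in KO and 10 in wild-type cells, and Rgs2, which limits G protein signals, had 38 in KO and 17 in wild-type cells. Epithelial transcription factors had a median of 0.18 log2 over 21 members, and 0 of the 9 with at least 50 UMIs passed. Sox9 and Nfib stood at 0.04 and -0.02 log2, and Runx1 at 1.48, with 75 UMIs in KO and 27 in wild-type cells.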
